A study of Mus musculus with 12 samples.

Results

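The collagen genes encode the alpha chains of collagens, here the protein-coding genes of the mouse annotation GENCODE M21 (genome build GRCm38) whose symbol is Col, a number, a and a number. The rule found 44 of 21951 protein-coding genes, and 42 of them had at least 1 accessible region (peak) overlapping the gene body extended by 5 kb on either side. Col10a1 and Col9a1 had none. The 44 genes were split by the structure their chains build into 11 fibrillar collagens (Col1a1, Col1a2, Col2a1, Col3a1, Col5a1, Col5a2, Col5a3, Col11a1, Col11a2, Col24a1 and Col27a1), the 6 type IV chains of the basement membrane and 27 other collagens. These genes held 320 of 91354 peaks in the peak set made from the BGI data and 307 of 87027 peaks in the set made from the Illumina data.

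Collagen chains wind around each other into a triple helix, and the type of chain decides what the helix assembles into. Fibrillar collagens form the rope-like fibrils of skin, bone, tendon and cartilage, and fibroblasts are their best known producers. Type IV collagens form the sheet-like network under epithelia and around vessels, while the other families decorate fibrils, span membranes or build short-chain networks and beaded filaments. Each type IV gene shares a start region with a partner on the opposite strand (Col4a1 with Col4a2, Col4a3 with Col4a4, Col4a5 with Col4a6), so that both chains are read from a common promoter.

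The assay was Omni-ATAC-seq, in which the Tn5 transposase inserts sequencing adapters into open chromatin. Mouse embryonic fibroblasts (MEFs; libraries 1, 2 and 4, sorted as Thy1+) were compared with mouse embryonic stem cells (mESCs; libraries 1, 3 and 5, sorted as Thy1-/Ssea1+/Epcam+), both from cultures on a C57/Bl6 background. The DNBSEQ-G400 of BGI and the HiSeqX10 of Illumina each read every library, which gave 12 samples in 4 groups of 3. The 2 platforms read the same 6 libraries, so a result on both is a repeated measurement and not an independent sample. Sorted bulk cultures were measured, so a smaller share of open cells and a less open region in every cell cannot be told apart.

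Reads inside peaks numbered 20085886 to 21662775 per MEF sample and 15860985 to 16911482 per mESC sample on BGI, and 20127546 to 21441767 and 15996202 to 16958488 on Illumina. All values below are CPM, read counts scaled to the library's reads in the peak set, and every difference is a log2 fold change of mESC over MEF with its standard error, 3 libraries against 3, from edgeR's quasi-likelihood F-test. A peak or gene was called where its p-value, adjusted by Benjamini-Hochberg over all peaks or all protein-coding genes, was under 0.05. The labels were checked on the summed peak counts of marker genes. All 7 mESC markers (Pou5f1, Nanog, Esrrb, Zfp42, Dppa4, Sox2 and Epcam) were higher in mESCs and all 6 MEF markers (Thy1, Pdgfra, Pdgfrb, Twist2, Prrx1 and Fap) were lower on both platforms, and Thy1 and Epcam had been used for the sort. At the strongest promoter peak 5 of the 6 MEF markers were lower, and Pdgfra was not called (0.08 on BGI, 0.16 on Illumina).

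Collagen chromatin was mostly more open in MEFs. On BGI, 230 of the 320 collagen peaks (71.9%) were lower in mESCs, where 43.2% of all peaks were, and 52 (16.3%) were higher, where 40.9% of all peaks were. On Illumina, 222 of 307 (72.3%) were lower against 42.4% of all peaks, and 50 (16.3%) were higher against 42.1%. The median log2 fold change of collagen peaks was -2.39 on BGI and -2.22 on Illumina, where the median of all peaks was -0.08 and -0.03. The 3 MEF values and the 3 mESC values did not overlap in 287 of the 320 BGI peaks (89.7%, beside 85.1% of all peaks) and in 273 of the 307 Illumina peaks (88.9%, beside 85.6%). Of the 280 BGI peaks that overlapped an Illumina peak by at least 50%, 193 were lower on both platforms, 46 were higher on both, and none were called in opposite directions.

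The share of peaks lower in mESCs differed between the classes. Of the fibrillar collagen peaks, 89 of 103 (86.4%) were lower on BGI and 7 were higher, with a median log2 fold change of -3.27. Type IV collagen peaks came close to them, with 38 of 45 (84.4%) lower, 3 higher and a median of -3.03. Peaks of the other collagens were more divided, with 103 of 172 (59.9%) lower, 42 higher and a median of -1.35. The Illumina data gave 86 of 100, 37 of 44 and 99 of 163 peaks lower for the 3 classes, with medians of -2.87, -3.14 and -1.24, so that the fibrillar and type IV medians changed places between the platforms.

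**Figure D1:**
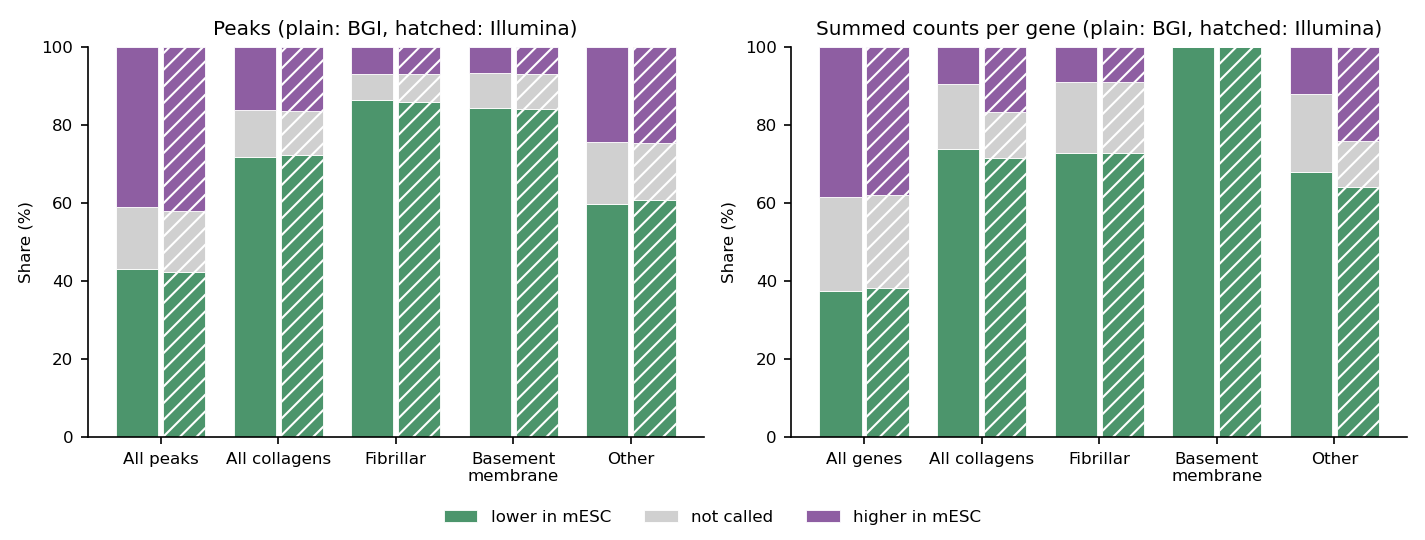
Share of peaks (left) and of genes by their summed counts (right) that were lower in mESCs, higher in mESCs or not called, in percent, for all features tested, all collagens and the 3 collagen classes; plain bars are BGI and hatched bars Illumina. Of the fibrillar peaks 86.4% were lower on BGI against 43.2% of all peaks, and all 6 type IV genes were lower on both platforms.

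Counts were also summed over the peaks of each gene. On BGI, 31 of the 42 collagen genes with peaks were lower in mESCs and 4 were higher, where 37.6% of all protein-coding genes were lower and 38.5% were higher. On Illumina, 30 were lower and 7 higher, against 38.2% and 37.9% of all genes. Lower on both platforms were 30 genes, while Col13a1 and Col18a1 were higher on both. The median log2 fold change was -1.31 on BGI and -1.20 on Illumina over the collagen genes, beside -0.00 and -0.01 over all genes. By class the BGI medians were -2.24 for fibrillar genes (8 of 11 lower, 1 higher), -1.53 for type IV genes (6 of 6 lower) and -0.93 for the other collagens (17 of 25 lower, 3 higher). When only peaks of no other gene were counted, the type IV median was -2.43. That median leaves out Col4a5, whose only peak also counts for Col4a6, and the 3 peaks shared by Col4a1 and Col4a2. It is thus not over the same genes and peaks as the -1.53.

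**Figure D2:**
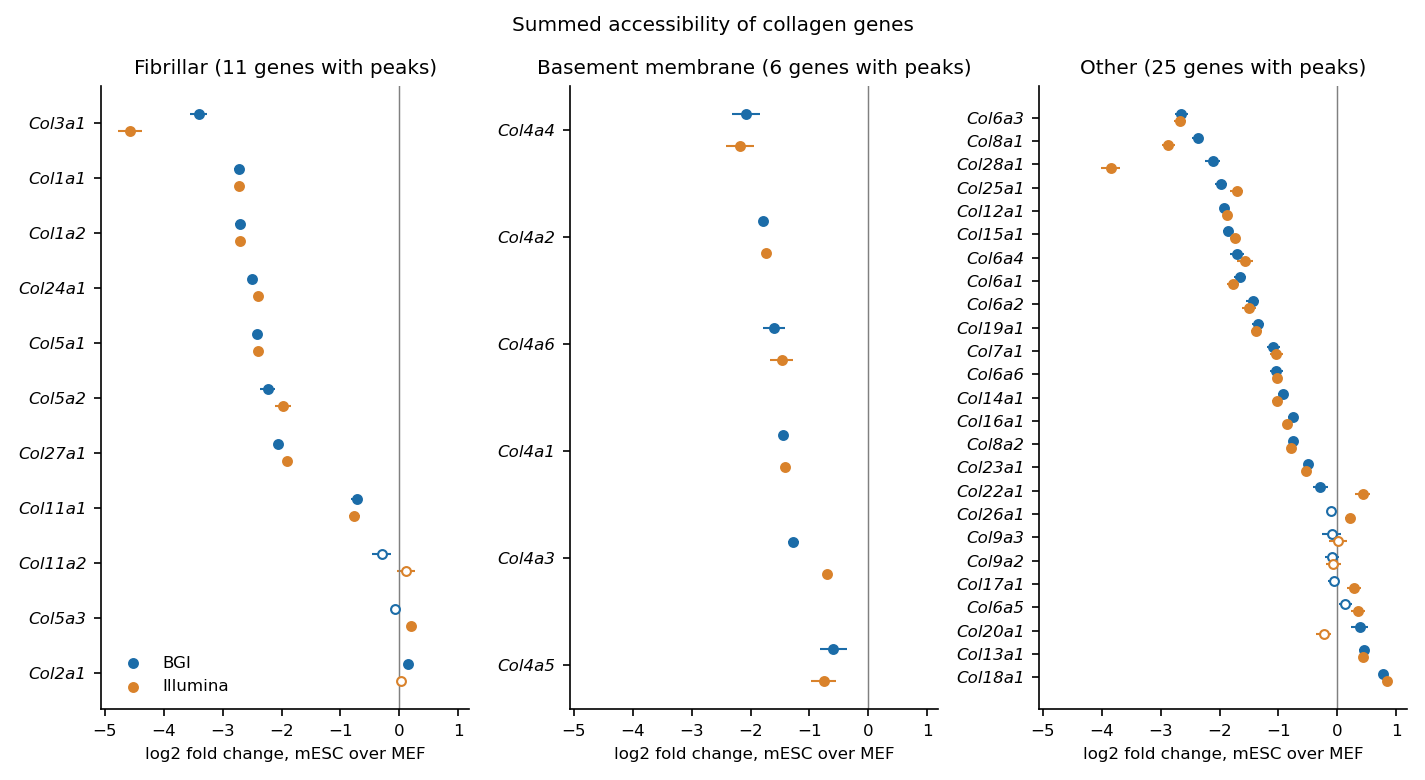
log2 fold change of the summed counts, mESC over MEF, for the 42 collagen genes with peaks, by class; points are estimates, bars standard errors, filled points genes called at an adjusted p under 0.05, blue BGI and orange Illumina. Col3a1 stands lowest at -3.41 on BGI and -4.58 on Illumina, and Col18a1 highest at 0.77 and 0.84.

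Col1a1 and Col1a2 encode both chains of type I collagen, the main fibril collagen of bone, skin and tendon. Col1a1 (chr11:94936224-94953042, plus strand) summed to 390, 318 and 379 CPM in the MEF libraries and to 55.3, 55.8 and 54.7 CPM in the mESC libraries on BGI. On Illumina it summed to 366, 308 and 348 CPM in MEFs and to 53.0, 51.4 and 50.7 CPM in mESCs. The fold change was -2.73 ± 0.07 on both platforms (edgeR adjusted p = 1.18e-18 on BGI and 2.74e-17 on Illumina). Every MEF sample was far above every mESC sample, and each of the 21 BGI and 19 Illumina peaks of the gene was called lower. Most of these peaks entered the peak set through the MEFs, where they are high, so their shared direction is partly built in.

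The difference was not even along Col1a1. The peak over its start held 40.1, 32.6 and 42.6 CPM in MEFs and 1.45, 2.01 and 1.37 CPM in mESCs (-4.63 ± 0.17, edgeR adjusted p = 3.63e-13). A second peak, 928 bp from the gene start and within 1 kb of an annotated start, was the stronger of the promoter peaks on average and kept 12.0, 12.4 and 11.4 CPM in mESCs, against 33.8, 31.3 and 37.7 CPM in MEFs (-1.59 ± 0.11, edgeR adjusted p = 5.99e-10). The most open region around the gene lay upstream of the start, with 53.4, 50.3 and 52.1 CPM in MEFs and 2.08, 2.72 and 3.04 CPM in mESCs. MACS2 runs on single libraries placed a reproducible peak in 21 (BGI) and 19 (Illumina) places of this gene in MEFs and in 1 place in mESCs. The tested peak sets were built from such peaks, so these counts are no separate support.

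Col1a2 (chr6:4504814-4541544, plus strand) summed to 128, 122 and 155 CPM in MEFs and to 22.0, 20.3 and 20.5 CPM in mESCs on BGI, and to 136, 124 and 153 CPM against 22.8, 21.1 and 19.8 CPM on Illumina. Both groups were again well apart (-2.71 ± 0.08, edgeR adjusted p = 1.14e-17, and -2.70 ± 0.08, 2.58e-16), and all 10 peaks were lower on each platform. Here too most peaks entered through the MEFs, with 10 reproducible peaks in MEFs and 2 in mESCs on each platform. The strongest promoter peak of Col1a2 held 49.5, 45.5 and 60.4 CPM in MEFs and 8.83, 8.57 and 8.08 CPM in mESCs on BGI (-2.67 ± 0.12, edgeR adjusted p = 2.61e-12).

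Col3a1, the chain of type III collagen of skin and vessel walls, was the collagen gene with the lowest fold change. The gene (chr1:45311538-45349706, plus strand) summed to 28.4, 25.1 and 31.2 CPM in MEFs and to 3.03, 2.54 and 2.48 CPM in mESCs on BGI (-3.41 ± 0.15, edgeR adjusted p = 5.00e-15). On Illumina the values were 22.7, 19.5 and 25.2 CPM against 1.19, 0.708 and 0.930 CPM (-4.58 ± 0.20, edgeR adjusted p = 7.02e-14). The platforms differ here in the peaks summed: the BGI set holds a further intronic peak (-1.70 ± 0.27) with no counterpart in the Illumina set. The promoter peak alone gave -4.47 ± 0.24 and -4.31 ± 0.26, from 306, 269 and 343 reads in MEFs against 13, 9 and 12 reads in mESCs on BGI. MACS2 found this promoter peak in 3 of 3 MEF samples and in 0 of 3 mESC samples on each platform. Col6a3, a chain of the beaded-filament collagen VI, summed to 77.4, 67.0 and 61.4 CPM in MEFs and to 12.0, 9.58 and 11.7 CPM in mESCs on BGI (-2.65 ± 0.11; -2.67 ± 0.11 on Illumina). Its promoter peak had the pattern of Col3a1 (489, 327 and 394 reads against 15, 4 and 18 on BGI; -4.74 ± 0.29 and -5.38 ± 0.26; a MACS2 peak in 3 of 3 MEF and 0 of 3 mESC samples on each platform).

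The promoters of Col1a2, Col3a1 and Col6a3 are printed because their peaks were among the most unequal of the collagen promoters, and that of Col4a2 because its peak was not called. Each is the RefSeq sequence of build GRCm38.p6 from 250 bases before to 50 bases after an annotated start, with capitals for letters found on either strand, namely TGANTCA for AP-1, GGAATG for TEAD, CCAAT for the box of that name, TATAAA for the TATA box, GGGCGG for the GC box and ATGCAAAT for the octamer.
Col1a2 promoter (chr6:4505368-4505667, + strand): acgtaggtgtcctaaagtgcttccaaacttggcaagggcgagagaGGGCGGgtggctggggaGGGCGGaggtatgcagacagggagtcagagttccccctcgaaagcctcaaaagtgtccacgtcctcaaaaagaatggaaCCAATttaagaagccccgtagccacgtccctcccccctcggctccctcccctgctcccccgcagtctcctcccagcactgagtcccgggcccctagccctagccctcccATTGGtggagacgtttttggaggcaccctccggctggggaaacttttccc
Col3a1 promoter (chr1:45311288-45311587, + strand): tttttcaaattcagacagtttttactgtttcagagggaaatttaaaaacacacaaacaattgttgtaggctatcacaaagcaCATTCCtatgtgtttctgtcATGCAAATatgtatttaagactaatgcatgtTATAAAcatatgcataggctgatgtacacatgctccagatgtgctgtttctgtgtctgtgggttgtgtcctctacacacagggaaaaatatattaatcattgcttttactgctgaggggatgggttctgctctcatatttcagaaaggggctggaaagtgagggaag
Col6a3 promoter (chr1:90843922-90844221, - strand): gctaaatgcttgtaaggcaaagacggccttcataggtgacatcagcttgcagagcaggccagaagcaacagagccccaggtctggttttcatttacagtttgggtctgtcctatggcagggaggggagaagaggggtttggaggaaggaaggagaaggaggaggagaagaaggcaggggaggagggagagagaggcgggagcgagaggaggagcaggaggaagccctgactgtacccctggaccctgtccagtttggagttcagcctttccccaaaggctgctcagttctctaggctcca
Col4a2 promoter (chr8:11312555-11312854, + strand): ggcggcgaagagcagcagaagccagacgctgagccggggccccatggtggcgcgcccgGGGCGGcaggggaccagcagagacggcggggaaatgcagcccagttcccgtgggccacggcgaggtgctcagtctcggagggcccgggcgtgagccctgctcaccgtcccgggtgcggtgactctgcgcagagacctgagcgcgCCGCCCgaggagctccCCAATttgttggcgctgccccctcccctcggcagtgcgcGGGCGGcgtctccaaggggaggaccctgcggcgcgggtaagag
The Col1a2 and Col4a2 windows hold GC boxes and CCAAT letters, that of Col3a1 holds a TEAD match, an octamer and TATAAA, and that of Col6a3 holds none of the 6. RefSeq promoters were at hand for 35 of the 44 genes, some with several starts. GGGCGG was in 23 of their 38 promoters (60.5%) and in 35.7% of all 32851 promoters, and CCAAT was in 34.2% against 37.4%. TATAAA was in 13.2% against 13.6%, the octamer in 5.26% against 1.74%, AP-1 in 2.63% against 7.81% and TEAD in 13.2% against 14.7%.

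Among the remaining fibrillar genes, the partner chains of type V collagen, Col5a1 and Col5a2, which regulate fibril thickness, were lower (-2.42 ± 0.06 and -2.24 ± 0.13 on BGI). All 19 Col5a1 peaks and both Col5a2 peaks on BGI were lower. Reproducible peaks on BGI were 19 in MEFs and 2 in mESCs for Col5a1, and 2 and 0 for Col5a2. The shared direction of these peaks is therefore partly built in as well. The strongest promoter peak of Col5a1 held 48.6, 48.1 and 54.9 CPM in MEFs and 13.2, 15.8 and 16.7 CPM in mESCs on BGI. Col24a1 (-2.50 ± 0.07), Col27a1 (-2.05 ± 0.06) and Col11a1 (-0.73 ± 0.10) were lower as well.

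The cartilage collagen gene Col2a1 was not called lower in mESCs. It summed to 83.2, 85.5 and 85.4 CPM in MEFs and to 95.6, 89.5 and 101 CPM in mESCs on BGI (0.15 ± 0.06, edgeR adjusted p = 0.0360), a small difference that was no longer called with DESeq2 or when any 1 library other than mESC3 was left out (0.10 to 0.16). On Illumina the groups overlapped, with 112, 112 and 113 CPM against 116, 110 and 118 CPM (0.02 ± 0.05, edgeR adjusted p = 0.690). Cartilage marker genes (Acan, Matn1 and Sox9) summed to 78.6 to 89.1 CPM in MEFs and to 73.3 to 86.4 CPM in mESCs on BGI. Acan was called higher (0.43), Sox9 lower (-0.34) and Matn1 not called (-0.06). Col5a3, a minor type V chain, had a promoter peak that was higher in mESCs (17.6, 16.2 and 17.4 CPM against 23.9, 22.2 and 24.9 CPM on BGI; 0.41 ± 0.11, and 0.62 ± 0.11 on Illumina). Its summed counts gave -0.07 ± 0.07 on BGI and 0.20 ± 0.07 on Illumina, with only the latter called.

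**Figure D3:**
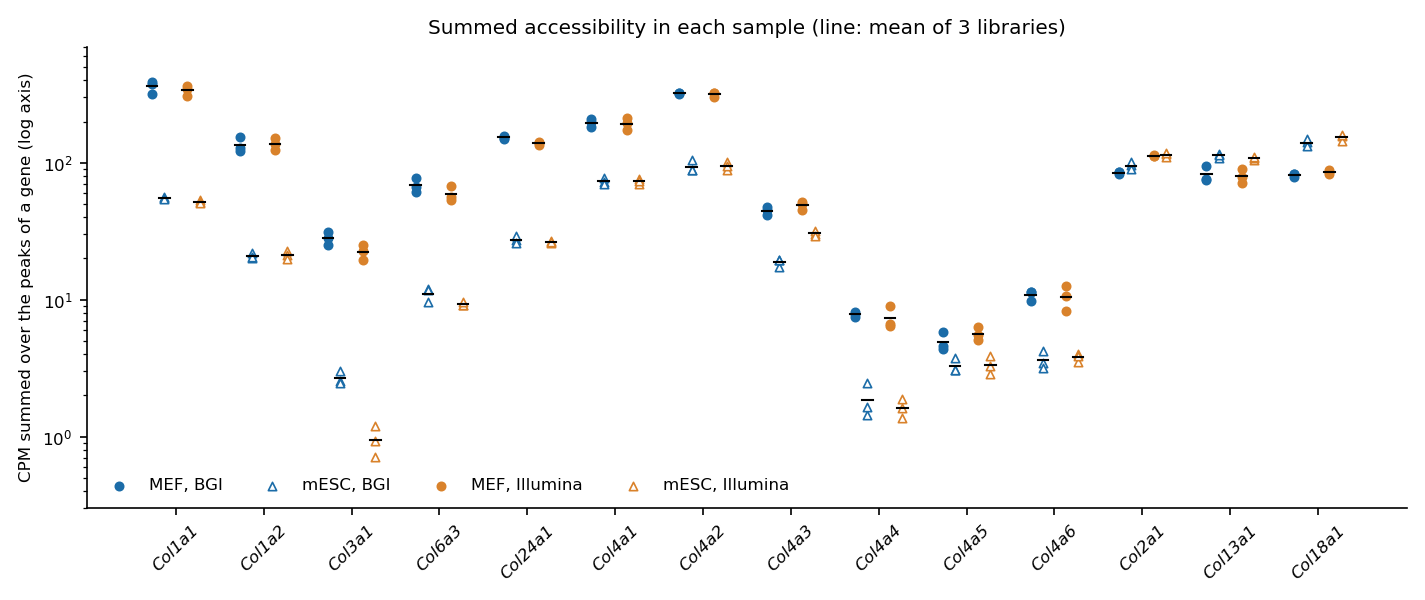
CPM summed over the peaks of a gene (log axis) in each of the 12 samples, for the 14 collagen genes given sample by sample; filled circles are MEFs, open triangles mESCs, blue BGI, orange Illumina, and each line is the mean of 3 libraries. Col1a1 lies between 308 and 390 CPM in MEFs and between 50.7 and 55.8 CPM in mESCs, whereas Col18a1 and Col13a1 are higher in mESCs.

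All 6 type IV genes were lower in mESCs by their summed counts. Col4a3, Col4a4 and Col4a6 had no promoter peak of their own, and Col4a5 had no other peak. Col4a1 (chr8:11198423-11312826, minus strand) and Col4a2 (chr8:11312805-11449287, plus strand) encode the chains of the most widespread basement membrane network. Col4a1 summed to 210, 198 and 181 CPM in MEFs and to 77.3, 71.8 and 69.9 CPM in mESCs on BGI (-1.45 ± 0.07, edgeR adjusted p = 1.93e-14; -1.41 ± 0.07 on Illumina). Col4a2 summed to 321, 324 and 316 CPM against 105, 88.3 and 88.0 CPM (-1.79 ± 0.07, edgeR adjusted p = 3.31e-16; -1.74 ± 0.06 on Illumina). In each gene every MEF sample was above every mESC sample on both platforms.

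The promoter peak that both genes share was not called, and its groups overlapped. It held 20.8, 21.4 and 21.5 CPM in MEFs and 22.3, 21.6 and 19.2 CPM in mESCs on BGI (-0.08 ± 0.11, edgeR adjusted p = 0.514), and 32.0, 27.8 and 28.7 CPM against 26.1, 29.8 and 27.8 CPM on Illumina (-0.13 ± 0.10, edgeR adjusted p = 0.237). MACS2 found a peak there in 3 of 3 samples of every group. The difference lay inside the genes: 35 of 38 type IV peaks in gene bodies away from promoters were lower on BGI, with a median of -3.21, where 1 of 5 promoter peaks was. On Illumina 34 of 37 body peaks and 1 of 5 promoter peaks were lower. The Col4a1 peak with the lowest fold change was intronic, 48.8 kb from the gene start, with 24.3, 22.1 and 12.0 CPM in MEFs and 0.630, 0.473 and 0.497 CPM in mESCs on BGI (-5.25 ± 0.32, edgeR adjusted p = 8.46e-11; -5.33 ± 0.30 on Illumina).

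The rarer type IV chains, found in the kidney filter, lens and skin, were called lower from few peaks. Col4a3 summed to 47.2, 44.9 and 41.8 CPM in MEFs and to 17.5, 19.4 and 19.4 CPM in mESCs on BGI (-1.27 ± 0.09; -0.70 ± 0.08 on Illumina). Its partner Col4a4 had a single peak, with 7.43, 8.20 and 7.82 CPM against 1.45, 1.66 and 2.48 CPM (-2.08 ± 0.24; -2.18 ± 0.24). The X-linked pair was lower too. The only peak of Col4a5, at its promoter, also lies within 5 kb of Col4a6 and is summed for both genes, so these calls are not separate. Col4a5 gave 4.57, 4.37 and 5.78 CPM against 3.09, 3.73 and 3.04 CPM on BGI (-0.59 ± 0.23, edgeR adjusted p = 0.0221). That call was lost without MEF4 (-0.48), without mESC1 (-0.55), without mESC5 (-0.54) and with the down-sampled depths as library sizes (-0.50), while the Illumina value was -0.76 ± 0.22. Col4a6 gave 11.4, 11.4 and 9.81 CPM against 3.47, 4.20 and 3.17 CPM on BGI (-1.61 ± 0.19; -1.47 ± 0.20 on Illumina), and its other peak, in the gene body, was lower on its own (-4.23 ± 0.42; -3.46 ± 0.43).

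Over all collagens, body peaks were more often lower than promoter peaks. On BGI, 177 of 234 body peaks (75.6%) and 32 of 54 promoter peaks (59.3%) were lower, with medians of -2.91 and -0.61, where 42.9% of the body peaks and 42.5% of the promoter peaks of all protein-coding genes were lower, with medians of 0.15 and -0.17. On Illumina the collagen shares were 75.7% and 63.8%, beside 41.2% and 44.5% for all protein-coding genes. Without the type IV genes the gap was narrower, with 142 of 196 body peaks (72.4%) and 31 of 49 promoter peaks (63.3%) lower on BGI and 72.4% against 67.9% on Illumina. The median fold change of a gene's body peaks was below that of its promoter peaks in 22 of 31 collagen genes with both kinds on BGI (71.0%) and in 20 of 29 on Illumina (69.0%), and in 40.6% and 39.3% of all protein-coding genes with both kinds. Taking the promoter peak with the highest mean CPM of each gene, 22 of 34 collagen genes were lower and 5 higher on BGI, where 43.9% of the promoter peaks of all protein-coding genes were lower and 22% were higher. On Illumina, 20 of 33 were lower and 6 higher, beside 45.6% and 22.4%. Of the other collagens, Col12a1, which decorates fibrils, had the strongest promoter peak (42.7, 40.1 and 44.7 CPM in MEFs, 11.0, 11.4 and 13.4 CPM in mESCs on BGI; -1.90 ± 0.11). It was followed by Col6a2 of collagen VI (39.7, 36.8 and 39.1 CPM against 12.0, 17.4 and 13.9 CPM; -1.48 ± 0.13).

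**Figure D4:**
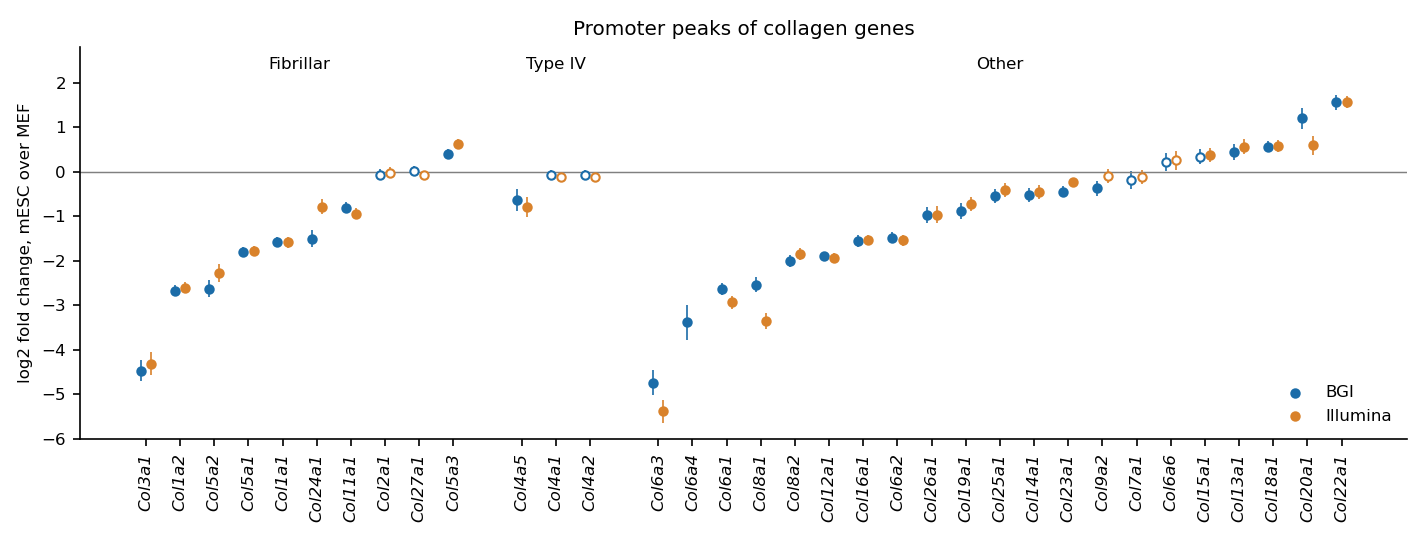
log2 fold change, mESC over MEF, of the strongest promoter peak of each collagen gene that had one, by class; bars are standard errors, filled points called at an adjusted p under 0.05, blue BGI and orange Illumina. Col6a3 (-4.74 and -5.38) and Col3a1 (-4.47 and -4.31) are lowest, the shared Col4a1 and Col4a2 peak lies at -0.08 and -0.13, and Col22a1 is highest at 1.56 and 1.57.

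Col22a1, a collagen of tissue junctions, went both ways. Its promoter peak held 6.74, 7.55 and 5.48 CPM in MEFs and 17.1, 24.2 and 19.9 CPM in mESCs on BGI (1.56 ± 0.17, edgeR adjusted p = 1.30e-07; 1.57 ± 0.14 on Illumina). All 4 other peaks of the gene were lower on BGI, as were both others on Illumina. The sum over its peaks was called lower on BGI (-0.29 ± 0.13) and higher on Illumina (0.43 ± 0.12), the only collagen gene called in opposite directions. These sums do not cover the same peaks, with 4 beside the promoter peak on BGI and 2 on Illumina.

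Peaks in both directions were found in 21 collagen genes on BGI and in 22 on Illumina, 20 of them on both. These are of 42 collagen genes with a peak (52.4% on Illumina), beside 44.9% and 44.1% of all protein-coding genes with a peak. Collagen genes had more peaks to differ, with a median of 5.5 a gene on BGI against 3, and among genes with at least 5 peaks the shares were 70.8% for collagens and 78.5% for all genes. On BGI, Col26a1 had 6 higher and 7 lower peaks, Col13a1 7 and 3, and Col8a2, which forms the hexagonal network of Descemet's membrane, 3 and 6. In 13 of 42 genes on BGI (31.0%) and 14 on Illumina (33.3%) every peak was lower, beside 13.7% and 14.5% of all protein-coding genes with a peak. Of these collagen genes 3 on each platform had a single peak. Among genes with at least 2 peaks the counts were 10 of 38 (26.3%) and 11 of 38 (28.9%), beside 8.03% and 8.70% of all genes.

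Col18a1 and Col13a1 were the genes called higher on both platforms. Col18a1 (chr10:77052178-77166548, minus strand) encodes the basement membrane collagen from which endostatin is cut. It summed to 82.9, 78.0 and 83.1 CPM in MEFs and to 141, 132 and 148 CPM in mESCs on BGI (0.77 ± 0.06, edgeR adjusted p = 1.72e-10), and to 87.8, 85.9 and 82.3 CPM against 156, 143 and 160 CPM on Illumina (0.84 ± 0.06, edgeR adjusted p = 1.65e-10). The higher peaks lay at the 5′ end of the gene: 8 of 10 BGI peaks within 40 kb of the gene start were higher and 1 was lower, while none of the 4 beyond were higher. On Illumina 9 of 11 within 40 kb and 0 of 5 beyond were higher. The largest rise on BGI was in an intronic peak 20.4 kb from the start, with 0.138, 0.199 and 0.548 CPM in MEFs and 7.06, 7.10 and 7.70 CPM in mESCs (4.55 ± 0.38; 3.51 ± 0.28 on Illumina). On Illumina the largest was in another intronic peak, 14.2 kb from the start (3.72 ± 0.16; 3.64 ± 0.18 on BGI).

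Col13a1 (chr10:61838236-61979108, minus strand), a transmembrane collagen of muscle and nerve junctions, summed to 76.2, 74.8 and 95.3 CPM in MEFs and to 109, 116 and 115 CPM in mESCs on BGI (0.45 ± 0.07, edgeR adjusted p = 7.57e-06; 0.44 ± 0.07 on Illumina). Its peaks ran from -4.35 ± 0.35, in an exonic peak 130 kb from the start, to 4.03 ± 0.33, in a peak just past the gene end. That last peak held 0.277, 0.795 and 0.697 CPM in MEFs and 7.31, 9.99 and 13.1 CPM in mESCs on BGI.

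Col24a1 (chr3:145292472-145552011, plus strand), a fibrillar collagen of developing bone, showed the sharpest contrast inside a gene. It summed to 158, 152 and 150 CPM in MEFs and to 27.1, 29.2 and 25.9 CPM in mESCs on BGI (-2.50 ± 0.07, edgeR adjusted p = 2.49e-18; -2.40 ± 0.06 on Illumina), and 12 of its 13 peaks were lower on each platform. The strongest was an intronic peak 128 kb from the start, with 53.3, 52.7 and 46.9 CPM in MEFs and 1.51, 1.48 and 0.994 CPM in mESCs (-5.32 ± 0.16, edgeR adjusted p = 6.15e-14; -5.58 ± 0.21 on Illumina). Further along the same gene, 151 kb from the start, another intronic peak went the other way, with 2, 6 and 9 reads in MEFs and 151, 211 and 175 reads in mESCs on BGI (0.0923, 0.298 and 0.448 CPM against 9.52, 12.5 and 10.9 CPM; 5.22 ± 0.34, and 5.72 ± 0.33 on Illumina). This was the highest fold change of any collagen peak on BGI.

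**Figure D5:**
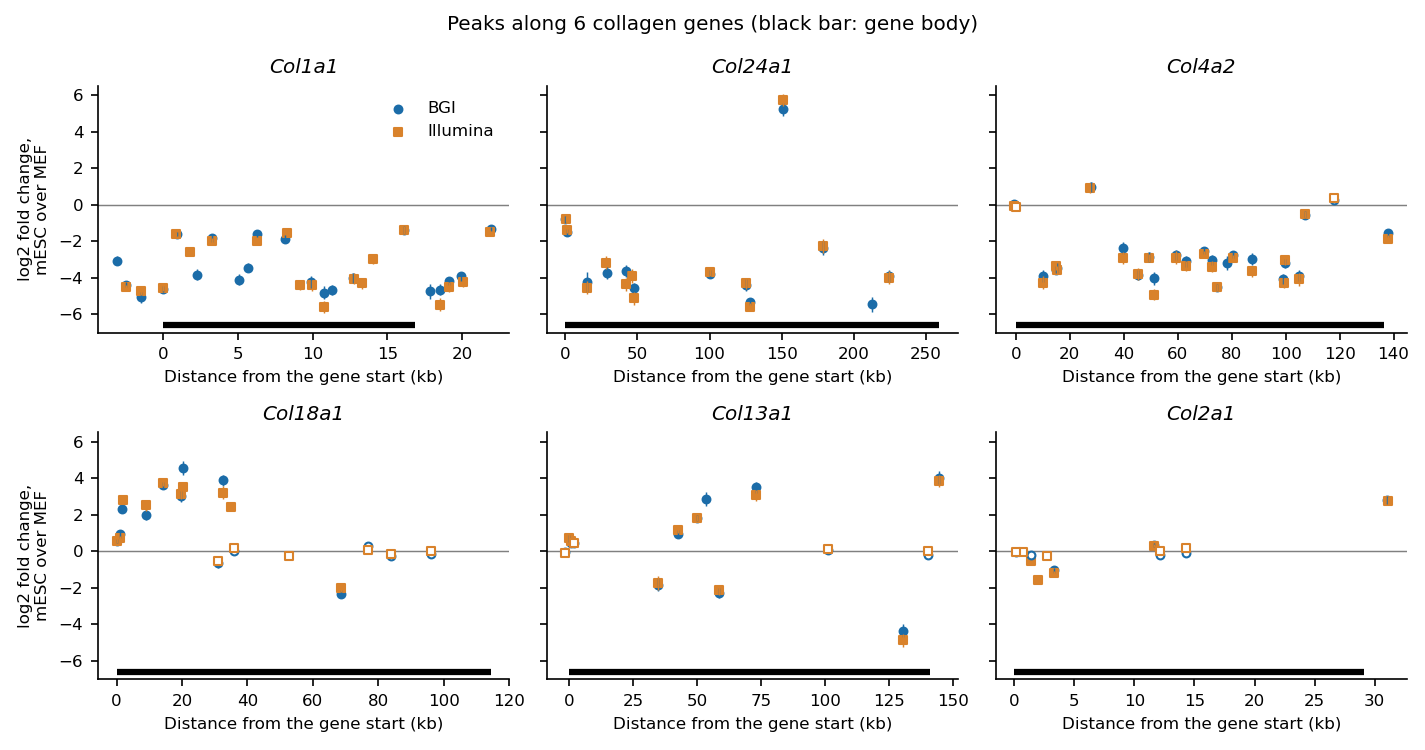
log2 fold change, mESC over MEF, of each peak against its distance from the gene start in kb for 6 collagen genes; circles are BGI, squares Illumina, filled where called, with standard errors, and the black bar is the gene body. Every Col1a1 peak lies below 0, a single Col24a1 peak at 5.22 (BGI) stands above 12 lower peaks, and the higher Col18a1 peaks sit at the start of the gene.

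Other peaks with extreme values called in the same direction on both platforms rested on few reads in the closed cell type. An intronic Col12a1 peak 110 kb from the start held 162, 159 and 166 reads in MEFs and 0, 6 and 3 reads in mESCs on BGI (-5.44 ± 0.43). An intronic peak of Col25a1, a transmembrane collagen of neurons, held 217, 181 and 189 reads against 3, 2 and 6 (-5.42 ± 0.33). A Col27a1 peak beside the start of a non-coding transcript of the gene held 231, 153 and 301 reads against 0, 13 and 2 (-5.21 ± 0.49). In each of these 3 peaks the MEF counts were all far above the mESC counts. In the other direction, a peak 4.5 kb upstream of Col17a1, the hemidesmosome collagen, held 16, 12 and 12 reads in MEFs and 229, 315 and 214 reads in mESCs (4.50 ± 0.25). It overlaps the start of a long non-coding RNA, AC131719.1. An exonic Col5a3 peak held 6, 8 and 15 reads against 114, 129 and 120 (3.90 ± 0.33).

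The central 300 bases of 4 of these peaks are printed because the first pair, from the same gene, changed in opposite directions and the second pair gives a further example of each direction. They are plus strand sequence of build GRCm38.p6, with capitals for AP-1 (TGANTCA) and TEAD (GGAATG) letters on either strand.
Col24a1 intronic peak, lower in mESCs (chr3:145420560-145420859, + strand): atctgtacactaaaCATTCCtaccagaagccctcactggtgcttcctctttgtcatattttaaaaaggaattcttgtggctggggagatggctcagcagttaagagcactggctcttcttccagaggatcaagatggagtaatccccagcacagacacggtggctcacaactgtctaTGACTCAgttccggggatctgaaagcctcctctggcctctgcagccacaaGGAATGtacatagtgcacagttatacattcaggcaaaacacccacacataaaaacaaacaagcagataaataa
Col24a1 intronic peak, higher in mESCs (chr3:145443267-145443566, + strand): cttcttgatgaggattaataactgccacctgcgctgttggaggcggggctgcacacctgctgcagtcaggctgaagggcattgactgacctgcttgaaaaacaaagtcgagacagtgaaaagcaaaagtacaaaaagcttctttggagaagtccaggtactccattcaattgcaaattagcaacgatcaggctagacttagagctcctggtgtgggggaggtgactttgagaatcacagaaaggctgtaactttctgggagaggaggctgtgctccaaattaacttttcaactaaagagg
Col25a1 intronic peak, lower in mESCs (chr3:130400757-130401056, + strand): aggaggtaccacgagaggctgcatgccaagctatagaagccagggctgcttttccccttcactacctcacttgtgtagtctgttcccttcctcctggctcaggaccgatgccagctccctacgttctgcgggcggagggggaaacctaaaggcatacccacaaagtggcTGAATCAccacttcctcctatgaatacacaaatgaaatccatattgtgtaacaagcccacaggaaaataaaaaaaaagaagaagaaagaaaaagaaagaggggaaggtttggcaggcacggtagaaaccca
Col18a1 intronic peak, higher in mESCs (chr10:77146046-77146345, + strand): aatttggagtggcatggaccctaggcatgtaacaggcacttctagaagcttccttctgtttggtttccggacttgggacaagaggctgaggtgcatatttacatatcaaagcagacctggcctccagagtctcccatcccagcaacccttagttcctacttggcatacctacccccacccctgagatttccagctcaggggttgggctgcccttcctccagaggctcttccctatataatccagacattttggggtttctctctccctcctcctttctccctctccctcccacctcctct
The lower Col24a1 peak holds an AP-1 match and a pair of TEAD matches and the lower Col25a1 peak an AP-1 match, while neither higher peak holds either. Of the other peaks named above, the lowest Col4a1 peak and the Col27a1 peak hold neither, the Col12a1 peak holds a TEAD match and no AP-1 match, and the higher Col17a1, Col13a1 and Col5a3 peaks hold neither. Over the central 300 bases, AP-1 letters were in 30.4% of the 230 lower and in 9.62% of the 52 higher collagen peaks on BGI. The same shares were 31.8% and 14.5% over all lower and all higher peaks. TEAD letters were in 30.4% of lower and 19.2% of higher collagen peaks, beside 29.4% and 20.4% of all lower and higher peaks. The shares in collagen peaks were thus near those of all peaks of the same direction. The median GC content was 50.3% in lower collagen peaks and 49.2% in all lower peaks.

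MACS2 peaks were called in each sample without the other cell type, and kept as reproducible where they passed a score filter in several samples. The peak sets tested above were built from these lists and the same reads. The counts below are therefore no separate support for the fold changes. In MEFs 275 reproducible peaks on BGI (0.468% of 58813) and 267 on Illumina (0.485% of 55071) touched a collagen gene. In mESCs there were 113 (0.181% of 62270) and 110 (0.180% of 60956). Counted per gene, the fibrillar class had 98 peaks in MEFs and 23 in mESCs on BGI, the type IV class 46 and 10, and the other collagens 135 and 81. Col3a1, Col5a2, Col4a4, Col4a5 and Col4a6 had reproducible peaks in MEFs and none in mESCs on either platform. The filter matters here. Before it, MACS2 called 2 to 6 summits in every mESC sample for each of these genes but Col3a1, which had 0 or 1. On the Col5a2 and Col4a5 promoters such a peak was called in 3 of 3 mESC samples on each platform. More peaks in mESCs than in MEFs were found on both platforms for Col13a1 (11 against 8 on BGI, 10 against 8 on Illumina), Col18a1 (12 against 7 and 14 against 9) and Col5a3 (4 against 3 on each). Col20a1 had 2 against 1 on BGI only, and Col6a5 (3 against 2) and Col17a1 (2 against 1) had more on Illumina only.

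The proteins that fold, cut, crosslink and bind collagens were described on a list of 45 genes. Of their strongest promoter peaks, 31 of 44 were lower in mESCs and 3 higher on BGI, where 43.9% of the promoter peaks of all protein-coding genes were lower and 22% higher. On Illumina 32 of 43 were lower and 3 higher, beside 45.6% and 22.4%. The medians were -0.83 and -0.75. P3h4 and Fkbp10 share a promoter peak, which was lower and counts for both genes. Among the chaperones and modifying enzymes 16 of 20 promoters were lower on BGI, among the processing and crosslinking enzymes 7 of 12, and among receptors and fibril regulators 8 of 12. The lowest promoters called on both platforms were those of Ddr2, the collagen receptor of fibroblasts, Lox, which crosslinks fibrils, and Fmod, a fibril-binding proteoglycan. Ddr2 held 27.1, 23.4 and 33.4 CPM in MEFs and 1.58, 1.95 and 1.99 CPM in mESCs on BGI (-3.99 ± 0.18, edgeR adjusted p = 2.87e-12; -4.66 ± 0.25 on Illumina). Lox held 41.7, 33.4 and 35.6 CPM against 3.85, 4.55 and 3.67 CPM (-3.26 ± 0.15; -2.90 ± 0.13), and Fmod 7.76, 8.0 and 11.4 CPM against 1.01, 1.54 and 1.24 CPM (-2.89 ± 0.26; -3.47 ± 0.31).

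The promoters of Crtap, a partner of the prolyl 3-hydroxylase, and of Ddr1, the collagen receptor of epithelia, were the 2 called higher on both platforms. Crtap held 19.8, 21.1 and 20.1 CPM in MEFs and 42.7, 47.7 and 45.6 CPM in mESCs on BGI (1.09 ± 0.10; 0.85 ± 0.09 on Illumina). Ddr1 held 31.8, 31.1 and 28.7 CPM against 48.6, 43.0 and 52.4 CPM (0.58 ± 0.10; 0.60 ± 0.09). The 2 collagen receptors of this family thus stood on opposite sides. The promoter of Pcolce, an enhancer of procollagen cleavage, was called higher on BGI (0.41 ± 0.11) and not on Illumina (0.25 ± 0.13). Among the promoters called in the same direction on both platforms, the next by fold change on BGI was that of the lysyl hydroxylase Plod2, which was lower in mESCs (-0.27 ± 0.11; -0.44 ± 0.09 on Illumina).

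Markers of other cell types moved too. Leukocyte markers (Ptprc, Csf1r, Adgre1 and Spi1) summed to 73.7 to 82.2 CPM in MEFs and 49.4 to 51.9 CPM in mESCs on BGI, with no peak at Adgre1. Of the 3 with a peak on BGI, 2 were lower, among them Csf1r (-2.59), and 1 was not called (0.00). On Illumina, where Ptprc had no peak either, Csf1r was lower and Spi1 was not called (-0.10). Endothelial markers (Pecam1, Cdh5, Tie1 and Kdr) summed to 93.2 to 105 and 119 to 128 CPM, with no peak at Tie1. Their sum was higher in mESCs through Pecam1 (0.86), while Cdh5 and Kdr (-0.92) were lower. Extraembryonic endoderm markers (Gata6, Sox17 and Gata4), cells known for making type IV collagen, summed to 109 to 124 CPM in MEFs and 164 to 178 CPM in mESCs. Sox17 (2.42) and Gata4 (0.73) were higher and Gata6 (-0.71) was lower. Keratinocyte markers (Krt5, Krt14 and Trp63) summed to 24.8 to 26.7 and 43.1 to 53.7 CPM on BGI, with Krt14 higher (1.88), Krt5 lower (-0.84) and Trp63 not called (0.08). On Illumina 2 of these 3 markers were higher and 1 was lower. Muscle markers summed to 5.54 to 6.87 and 14.7 to 16.8 CPM, from Myod1 alone, since Myf5 and Myog had no peak. The part of any such cells in the collagen values was not tested.

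The platforms were compared on the same libraries over reproducible peaks. Of 298 collagen peaks in MEFs, 2 were called, both lower on BGI, and of 120 in mESCs 1 was, where 4.06% of all MEF peaks and 3.23% of all mESC peaks were called. These were a Col23a1 peak (-0.71 ± 0.15, BGI over Illumina, edgeR adjusted p = 0.0335, GC content 76.3%) and the shared Col4a1 and Col4a2 promoter (-0.43 ± 0.09, 0.0269, GC content 74.4%) in MEFs, and a Col23a1 peak in mESCs (-0.45 ± 0.10, 0.0252). Since both platforms read the same libraries, the fit with the library as a replicate block is the closer one to the design: it called 58 collagen peaks in MEFs (36 higher and 22 lower on BGI, 19.5%) and 19 in mESCs (6 and 13, 15.8%), where 29.2% and 21.3% of all peaks were called. The median GC content of the blocked calls in MEFs was 48.9% for collagen peaks higher on BGI and 64.9% for those lower on BGI, beside 48.2% and 67.3% over all peaks. With a GC offset added to the block, 29 collagen peaks were called in MEFs (7 higher and 22 lower on BGI, 9.73%, beside 10.7% of all peaks) and 11 in mESCs (2 and 9, 9.17%, beside 10.5%), and the median GC content in MEFs was 58.5% for higher and 53.5% for lower collagen peaks. Without the block, the count was 0 when MEF1 or MEF2 was left out and 11 without MEF4, and 0 without mESC1 or mESC5. The share over all peaks was not taken for these left-out fits. The largest difference between platforms was 0.71 on the log2 scale in MEFs and 0.49 in mESCs.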

How the data were processed

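Omni-ATAC-seq data of 6 libraries (3 MEF, 3 mESC), each read on 2 platforms, were taken as the authors deposited them, 12 samples in all. Per the study's methods, the authors trimmed reads with Cutadapt, aligned them to GRCm38 with Bowtie2, removed duplicates, mitochondrial and Y reads, and down-sampled all samples of a cell type to the same depth, which removes depth differences between the platforms. They called peaks per sample with MACS2, extended summits to a fixed width, kept the most significant of overlapping peaks and those with a depth-scaled score of at least 3 in at least 2 samples (reproducible peaks), and counted reads, so the deposited count tables hold raw counts per peak. The peak sets were chosen on these same samples. A peak that was reproducible in a single cell type entered through the group where it is high, so its direction was partly fixed by that choice. The deposited MACS2 files give a fold enrichment (a ratio) and a −log10 p-value per peak, and values of single summits were taken from them without change. Columns with no platform suffix were taken as Illumina; this was checked per library by correlating, over peaks, the ratio of suffixed to unsuffixed counts with the ratio of BGI to Illumina MACS2 enrichment (Spearman rho 0.756 to 0.799), and down-sampling leaves a different depth for MEFs and mESCs.

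Gene models were GENCODE M21. A gene's peaks overlap its body extended by 5 kb by at least 1 bp; a promoter peak lies within 1 kb of an annotated start, and the one with the highest mean CPM stands for the gene. Counts were tested with edgeR 4.0.16 (R 4.3.3; TMM scaling, quasi-likelihood F-test, filterByExpr, which kept every peak), with cell type only as a term; errors are standard errors of the log2 fold change. Precision is limited by 3 libraries a group and, in closed regions, by counts of a few reads. Replicates were separate biological samples per the study. DESeq2 1.42.0, other scalings, gene windows and left-out libraries were alternatives, and the scripts were tested on simulated data. Library numbers pair the samples between platforms because both read the same libraries: the correlation of deviations was 0.617 to 0.837 in MEFs and 0.515 to 0.725 in mESCs for the same number.

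Values are given sample by sample for Col1a1, Col1a2, Col3a1, Col2a1, the type IV genes, up to 5 genes with the lowest and highest fold changes called on both platforms (only 2 were higher), 5 peaks in each direction (at most 2 a gene), and the next 2 promoter peaks by mean CPM in each class. The 3 genes with the most peaks in both directions are given by their peak counts. The promoter peak of Col6a3, Col22a1 and the upstream and start peaks of Col1a1 were added after their values were seen. The members, lists and rules were chosen with earlier results of these data known. Muscle, leukocyte, endothelial, endoderm, keratinocyte and cartilage markers served as checks.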

Additional observations from a re-analysis of the deposited data

Results flagged for a closer look

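Col11a2, a minor fibrillar chain of cartilage, was marked because its 3 MEF and 3 mESC values did not overlap on either platform but lay in opposite order. Its single peak was lower in mESCs on BGI (9.69, 10.7 and 10.01 CPM in MEFs, 8.95, 8.28 and 7.83 CPM in mESCs; -0.30 ± 0.16, edgeR adjusted p = 0.0865) and higher on Illumina (8.12, 8.60 and 8.57 CPM against 8.63, 9.49 and 9.18 CPM; 0.11 ± 0.15, edgeR adjusted p = 0.536). Neither was called, and the difference between the platforms' fold changes, -0.406 on the log2 scale, was not tested.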

How the results depend on the processing

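Fold changes were recomputed for the class medians and for the genes and peaks chosen by rule for sample-by-sample values, not for every collagen gene. None of these changed direction, mESC against MEF, under any alternative run for it. Of the summary values recomputed, 122 stayed close to the reported value and 40 moved. Close meant within a set ratio for a count and within the replicate standard deviation for a class median. Of the values of single genes or peaks, 550 kept their direction and call, whatever the size of the change. The other 10, all of Col2a1 and Col4a5 on BGI, lost their call. With a minimum log2 fold change of 1 the called promoter peaks fell to 16 of 34 on BGI (2 higher) and 13 of 33 on Illumina (1 higher). The promoter peaks of all protein-coding genes at this cut were 1135 lower and 1401 higher of 14863 on BGI, and 1041 and 1377 of 14931 on Illumina. The called genes fell to 24 of 42 on each platform, each of them lower, so that no collagen gene, Col18a1 and Col13a1 included, was called higher. Over all protein-coding genes the same cut left 1544 lower and 2170 higher of 17179 on BGI, and 1431 and 2122 of 17135 on Illumina. Library sizes set to the down-sampled depths moved the median of all peaks by 0.14 (BGI, from -0.08 to 0.06) and 0.13 (Illumina, from -0.03 to 0.09), across 0; the class medians then were -2.14 (fibrillar, BGI), -1.88 (fibrillar, Illumina) and -0.93 (other, Illumina). Gene bodies without extension gave medians of -2.35 and -2.17 (fibrillar, BGI and Illumina), -1.99 and -1.66 (type IV) and -1.23 and -1.16 (other). With 20 kb extensions they were -2.12 and -2.01 (fibrillar) and -0.68 and -0.84 (other). Counting only peaks of no other gene gave -2.37 and -2.22 (fibrillar), -2.43 and -2.46 (type IV, with Col4a5 left out) and -1.07 (other, Illumina). Leaving out 1 library gave Illumina medians of -2.05 to -1.94 (fibrillar) and -1.04 to -0.91 (other). The cause of these shifts was not tested.

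Between platforms, the replicate block called 58 collagen peaks in MEFs and 19 in mESCs, and the replicate block with a GC offset 29 and 11. In MEFs, 36 higher and 22 lower on BGI became 7 and 22 with the offset, and the median difference went from 0.07 to -0.03. The higher peaks turned from lower to higher in GC content than the lower ones. RLE size factors called 4 of 298 in MEFs (1.34%, beside 4.74% of all MEF peaks). DESeq2 called 11 of the 224 it tested in MEFs (4.91%, beside 12.8%). Leaving out 1 library gave 0 to 11 in MEFs and 0 to 1 in mESCs, with no share over all peaks taken. The MEF and mESC libraries were separate biological samples, and a library number found in both groups links none of them. The comparison of mESC against MEF was therefore unpaired.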
